A study of Mus musculus with 26 samples.

Results

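RNA that came down with an antibody against hnRNPK was compared between nuclear and cytoplasmic extracts of mouse liver. The comparison used 12 of the 26 libraries, chosen by their titles: 6 nuclear immunoprecipitations (IP) and 6 cytoplasmic ones, with 2 of each from each of 3 mouse groups. Wild type stands for C57BL/6J mice fed normal diet and high-fat diet for the same strain, C57BL/6J, fed a high-fat diet. The third group, ob/ob, was strain B6.V-Lepob/J fed normal diet, which is deficient in leptin and obese. All extracts were cleared on beads carrying control IgG before the hnRNPK antibody was added. The 12 libraries of total liver RNA were not used, and the 2 IgG libraries, 1 per compartment from mixed strains and diets, were only set beside the results. Whether the 2 libraries of a group came from separate animals is not stated in the labels, and p-values therefore measure the spread between these samples only, which could be technical. RNA of the extracts before precipitation was not analysed here, so a difference in what hnRNPK held and a difference in what each extract contained cannot be told apart.

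hnRNPK is a heterogeneous nuclear ribonucleoprotein that binds single-stranded, cytosine-rich RNA through KH domains. It moves between nucleus and cytoplasm, and it is known for roles in transcription and splicing in the nucleus and in the stability and translation of messenger RNA in the cytoplasm. In general, cytoplasmic RNA is mostly mature messenger, whereas nuclear RNA also includes transcripts that are still being processed or that stay in the nucleus.

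The unit of most results is the cluster, a group of transcripts that the deposited tables give 1 gene number. The files do not pair transcripts or clusters with gene symbols, so a cluster is named by the identifier of its most counted isoform, at most 2 are named in each direction, and markers of liver cell types could not be read. The tables held 59121 transcripts in 31469 clusters. After a filter on low counts 12502 clusters were tested, which took at least 99.89% of the counts of each library.

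The cytoplasmic libraries held 8834063 to 12068891 counts and the nuclear ones 5336060 to 10581089, a difference with an exact two-sided permutation p of 0.0216 over 6 against 6 libraries (0.0541 after Benjamini-Hochberg adjustment over 5 library measures). The difference between transcript length and the effective length used for counting, which grows with the mean length of the sequenced pieces, was 60.1 to 67.8 nt in cytoplasmic IP and 48.4 to 58.8 nt in nuclear IP (exact permutation p = 0.00216, adjusted 0.0108). One cluster, uc012ath.2 (5818 nt, 1 isoform), was the most counted in each of the 12 libraries, with shares of the counts between 12.2% and 28.8% in cytoplasmic libraries and between 18.6% and 41.2% in nuclear ones. Its log2 fold change was 0.39 ± 0.34 (SE) with an edgeR adjusted p of 0.323. The nuclear IP library of high-fat diet replicate 2 stood apart. Only 2 clusters held 50% of its counts, and its second most counted cluster took 11.96%, against at most 8.48% in the other 11 libraries.

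Most of the tested clusters differed in relative level between nuclear and cytoplasmic IP, many by less than 2-fold. Of 12502 clusters, 8191 (65.5%) passed an adjusted p of 0.05 in edgeR's quasi-likelihood test averaged over the 3 mouse groups: 4085 (32.7%) were higher in nuclear IP and 4106 (32.8%) higher in cytoplasmic IP. At least a 2-fold estimate was reached by 1872 nuclear clusters (15%) and 2410 cytoplasmic ones (19.3%). The counts drew apart at larger sizes. At least 4-fold, 203 clusters were higher in nuclear IP and 742 in cytoplasmic IP, and at least 8-fold 27 and 210. The median size among called clusters was 0.95 (log2) on the nuclear side and 1.15 on the cytoplasmic side, while the median over all 12502 clusters was 0.02. In 4441 clusters (35.5%) the 6 nuclear and 6 cytoplasmic libraries did not overlap, 2040 of them higher in nuclear IP and 2401 higher in cytoplasmic IP.

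The called clusters were also read as a share of all counts. The 4085 nuclear clusters took 16.2% to 21.5% of the counts in the cytoplasmic libraries and 36.7% to 39.1% in the nuclear ones. The 4106 cytoplasmic clusters took 38.6% to 55.8% in the cytoplasmic libraries and 12.4% to 24.3% in the nuclear ones. Neither range overlapped between compartments, which the choice of the clusters fixes in part. CPM, counts scaled to library size, describe how a library is composed, not how much RNA was bound. When libraries were scaled by their totals alone, the median over all clusters was 0.12 in place of 0.02, and 55.3% of the called clusters were higher in nuclear IP in place of 49.9%.

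**Figure D1:**
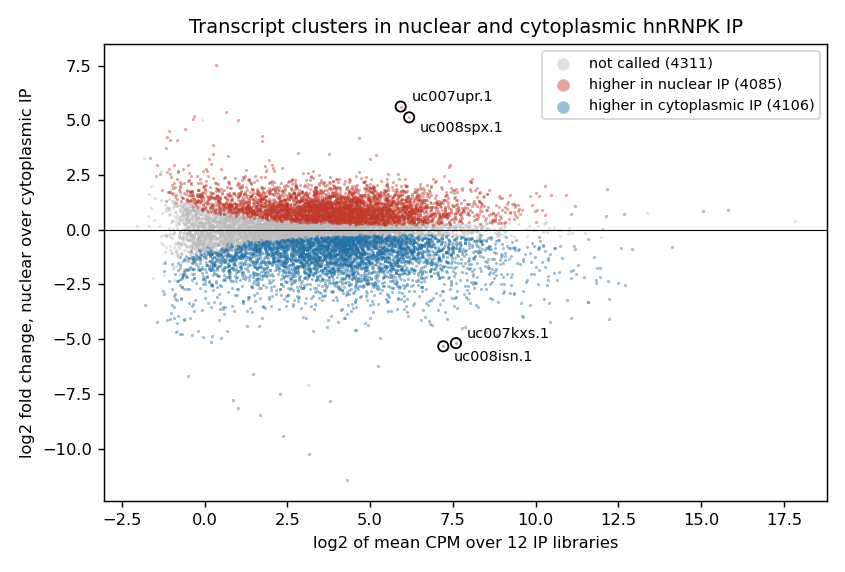
Log2 fold change of nuclear over cytoplasmic hnRNPK IP, averaged over 3 mouse groups, against the log2 of mean CPM for 12502 clusters, with 1 point per cluster. Red points are the 4085 clusters higher in nuclear IP, blue points the 4106 higher in cytoplasmic IP, and circles mark the 4 named clusters.

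Named clusters had to pass the threshold, have no overlap between the 6 and 6 libraries and reach a mean of 50 CPM, conditions that 481 nuclear and 670 cytoplasmic clusters met. The 2 with the largest fitted fold change in each direction are described. On the nuclear side both were short and had a single isoform. Cluster uc007upr.1 (557 nt) had 81.5 and 112 CPM in the nuclear IP of wild type, 158 and 167 with high-fat diet and 87.3 and 78.6 in ob/ob. In cytoplasmic IP it had 5.23 and 32.7 CPM in wild type, 0 and 5.58 with high-fat diet and 0.375 and 0 in ob/ob. All nuclear libraries lay above all cytoplasmic ones, and wild-type cytoplasmic replicate 2 was the highest of its side. The log2 fold change was 5.63 ± 0.58 (SE; edgeR adjusted p = 2.6e-06), and summed counts were 5009 against 386, a ratio per library size of 17.9 with an exact 95% interval of 16.1 to 19.9 that covers counting error only. Without wild-type cytoplasmic replicate 2 that ratio was 60.8. Without high-fat cytoplasmic replicate 2, which leaves that group at 0 counts, the fitted log2 fold change was 8.15. With several cytoplasmic libraries at or near 0 counts, the fitted fold change of this cluster depends on a prior count. The nuclear IgG library held 242 CPM of this cluster, more than any hnRNPK IP library, and the cytoplasmic IgG library held none.

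Cluster uc008spx.1 (275 nt) was the second. It had 122 and 153 CPM in nuclear IP of wild type, 68.6 and 166 with high-fat diet and 154 and 179 in ob/ob. The cytoplasmic values were 11.6 and 3.73 CPM in wild type, 1.38 and 5.31 with high-fat diet and 1.58 and 3.36 in ob/ob. The lowest nuclear library was thus far above the highest cytoplasmic one, and the 2 high-fat nuclear libraries differed most. The log2 fold change was 5.14 ± 0.36 (SE; edgeR adjusted p = 9.7e-08). Summed counts were 6608 against 254, a ratio per library size of 35.9 with an exact 95% interval of 31.6 to 40.8 for counting error. By that ratio uc008spx.1 stood above uc007upr.1, which had 17.9, so the order of the 2 depends on the measure. IgG held 33.7 CPM in the nucleus and 5.91 in the cytoplasm, where the latter rests on 2 counts.

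On the cytoplasmic side the leading clusters had short transcripts too. Cluster uc008isn.1 (669 nt, 1 isoform) had 219 and 236 CPM in cytoplasmic IP of wild type, 305 and 364 with high-fat diet and 312 and 295 in ob/ob. In nuclear IP it had 5.43 and 3.18 CPM in wild type, 7.29 and 11.2 with high-fat diet and 11.97 and 6.41 in ob/ob. In both compartments the 2 wild-type libraries were the lowest, and the compartments did not overlap. The log2 fold change was -5.33 ± 0.19 (SE; edgeR adjusted p = 1.3e-09). IgG held 112 CPM in the cytoplasm and 16.7 in the nucleus, the same order as the IP.

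Cluster uc007kxs.1 (641 nt, 2 isoforms) followed. Its cytoplasmic values were 313 and 292 CPM in wild type, 430 and 429 with high-fat diet and 394 and 394 in ob/ob. Its nuclear values were 9.83 and 4.77 CPM in wild type, 9.97 and 11.996 with high-fat diet and 15.6 and 11.1 in ob/ob. The replicates of each mouse group lay close together in the cytoplasm, and the nuclear libraries were all far below them. The log2 fold change was -5.18 ± 0.18 (SE; edgeR adjusted p = 1.2e-09). The IgG libraries held 290 CPM in the cytoplasm and 15.7 in the nucleus, next to the range of the IP libraries of each compartment.

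**Figure D2:**
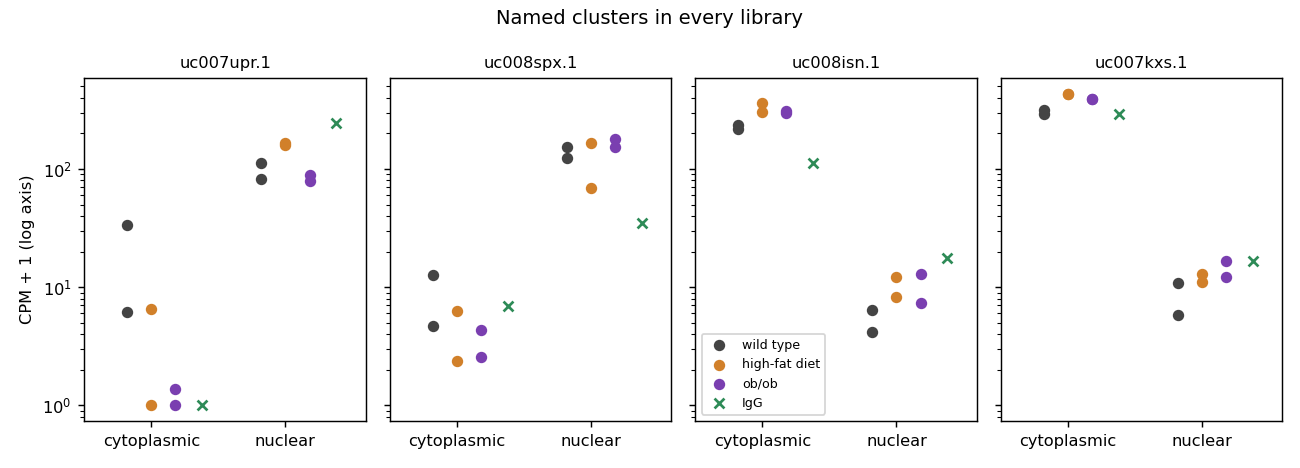
CPM plus 1 on a log axis of the 4 named clusters in each hnRNPK IP library (circles, coloured by mouse group) and in the IgG libraries (crosses). For uc007upr.1 and uc008spx.1 every nuclear circle is above every cytoplasmic one, and for uc008isn.1 and uc007kxs.1 the order is the opposite; the IgG crosses fall on the same side in each case.

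A similar difference between compartments was present in the 2 libraries titled IgG. Their titles and the study's design text name them as controls, while their label for the kind of molecule reads as RNA bound to hnRNPK, as for the IP libraries. The titles were followed, and every IgG value given here depends on that. It was read in the 4148 tested clusters with at least 10 counts in both IgG libraries, which held 3116786 counts in the nucleus and 338469 in the cytoplasm. Of the clusters called higher in nuclear hnRNPK IP, 84.6% were also higher in nuclear IgG, against 22.2% of those called higher in cytoplasmic IP and 52.8% of those not called. Among clusters called with at least a 2-fold estimate the shares were 92.4% and 8.97%. The median log2 ratio of nuclear to cytoplasmic IgG was 0.67 in clusters higher in nuclear IP, where the IP median was 0.86, and -0.60 in clusters higher in cytoplasmic IP, where the IP median was -1.08. Across these 4148 clusters Pearson's r between the IgG ratio and the IP fold change was 0.724, a description across clusters that share their libraries. With 1 IgG library per compartment this background has no replicate error, and how much of the IP difference it accounts for was not tested.

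Clusters of longer transcripts were relatively higher in nuclear IP. Clusters were classed by the effective length of their most counted isoform, and each class is described by its median log2 fold change, with the SD over the 3 mouse groups. In 1084 clusters of 500 to under 1000 nt the mean of the 3 medians was -0.80 ± 0.08, with 15.4% of clusters called higher in nuclear IP and 58.7% in cytoplasmic IP. In 3403 clusters of 1000 to under 2000 nt it was -0.27 ± 0.06, and in 5021 clusters of 2000 to under 4000 nt it was 0.11 ± 0.03. It reached 0.36 ± 0.12 in 2394 clusters of 4000 to under 8000 nt and 0.50 ± 0.22 in 302 clusters of 8000 nt or more, of which 50.3% were called nuclear and 8.28% cytoplasmic. The shares called over all lengths were 32.7% and 32.8%. The order was broken only by the 298 clusters under 500 nt, whose value of -0.64 ± 0.08 was above that of the next class. The longest class also differed most between mouse groups, with medians of 0.30 in wild type, 0.45 in high-fat diet and 0.74 in ob/ob. Over single transcripts in place of clusters, the means of the 3 medians were 0.14 ± 0.16 at 4000 to under 8000 nt and 0.26 ± 0.27 at 8000 nt or more, within 1 SD of 0. From 1000 nt up, the share of transcripts called nuclear was 16.2% to 20.8%, while that called cytoplasmic went from 29.8% to 5.28%.

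The gradient was also present among clusters with a single isoform in the tables, where the median was -0.83 at 500 to under 1000 nt (527 clusters) and 0.51 at 8000 nt or more (68 clusters). Clusters with more isoforms were relatively higher in nuclear IP, from a median of -0.07 in 4229 clusters with 1 isoform to 0.31 in 98 clusters with 10 or more. Abundance went the other way. The 189 clusters of at least 500 CPM had a median of -0.76, with 57.1% called higher in cytoplasmic IP and 23.8% in nuclear IP, while in the 3 classes under 100 CPM the medians lay between 0.00 and 0.07. In IgG the median log2 ratio was -0.48 at 500 to under 1000 nt, 0.20 at 2000 to under 4000 nt and -0.10 at 8000 nt or more, where the IP median over the same clusters was 0.38. Length minus effective length differed between the compartments as given above, and its part in these classes was not tested.

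**Figure D3:**
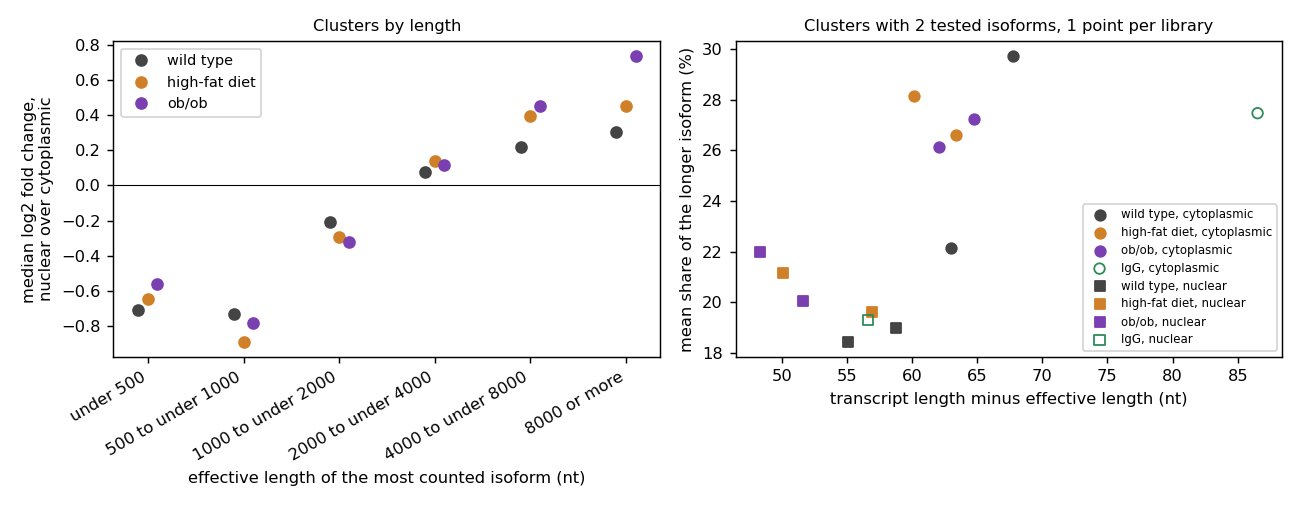
Left, the median log2 fold change of nuclear over cytoplasmic IP in 6 classes of effective length, with 1 point per mouse group, passing from below 0 under 2000 nt to above 0 from 2000 nt. Right, for 1359 clusters with 2 tested isoforms, the mean share of the longer isoform in each library against its length minus effective length; nuclear IP libraries (squares) lie at 18.4% to 22.0% and cytoplasmic ones (circles) at 22.1% to 29.7%, and open symbols are IgG.

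The 3 mouse groups were then read separately, each as a contrast of its own 4 libraries in the fit of all 12, which share the estimate of the spread. In wild type 5689 clusters (45.5%) were called, 2794 higher in nuclear IP and 2895 higher in cytoplasmic IP. In high-fat diet the call was made for 5491 (43.9%), 2650 and 2841, and in ob/ob for 5713 (45.7%), 2776 and 2937. Fitted on the 4 libraries of each group alone, the counts were 4362, 6183 and 5736, so the order of wild type and high-fat diet turned around. All 3 groups called 3907 clusters in the same direction, 1816 nuclear and 2091 cytoplasmic, and only 14 clusters were called in opposite directions in any pair of groups. The sign was the same in all 3 groups for 97.3% of the 8191 clusters called on average for 37.9% of those not called and for 76.8% of all tested. The first share is fixed in part by the choice of clusters, which were called on the average of the same 3 differences. Of the 4282 called with a 2-fold estimate, 4260 had the same sign in all groups. Without its nuclear and cytoplasmic replicate 2 libraries, a setting chosen after seeing the data that leaves 1 library on each side, high-fat diet called 2714 clusters and all 3 groups shared 2259.

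Because the mouse groups use different libraries, the fold changes of clusters picked in one can be read in another. Calls also rest on the spread estimated over all 12 libraries, so the shares called are not independent between groups. Over all clusters 45.5%, 43.9% and 45.7% were called in either direction in wild type, high-fat diet and ob/ob. Toward the nucleus alone these were 2794, 2650 and 2776 of 12502 clusters, and toward the cytoplasm alone 2895, 2841 and 2937. The shares called that follow count the picked direction only. The 1666 clusters called in wild type at least 2-fold toward the nucleus had a median log2 fold change of 1.39 there, 1.19 in high-fat diet and 1.28 in ob/ob. In those groups 99.0% and 99.4% had the same sign and 81.0% and 87.1% were called. The 2183 clusters called in wild type at least 2-fold toward the cytoplasm had medians of -1.70, -1.61 and -1.61, with 97.4% and 98.6% on the same side and 80.3% and 83.3% called. Picked in high-fat diet, 1710 nuclear clusters with a median of 1.44 read 1.24 in wild type and 1.37 in ob/ob. The sign was the same for 96.1% and 99.2%, and 70.5% and 84.0% were called. Picked in ob/ob, 1733 nuclear clusters with a median of 1.45 read 1.30 in both other groups, with 76.5% of them called in wild type; in high-fat diet 83.6% were called.

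Pearson's r of the fold changes across clusters was 0.802 between wild type and high-fat diet, 0.830 between wild type and ob/ob and 0.853 between high-fat diet and ob/ob. In the 2208 clusters of at least 50 CPM it was 0.946, 0.947 and 0.971. Of the clusters called in wild type, 73.5% were called the same way in high-fat diet and 78.0% in ob/ob, and of those called in high-fat diet 84.3% were called in ob/ob. These values describe clusters, which are not independent replicates.

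**Figure D4:**
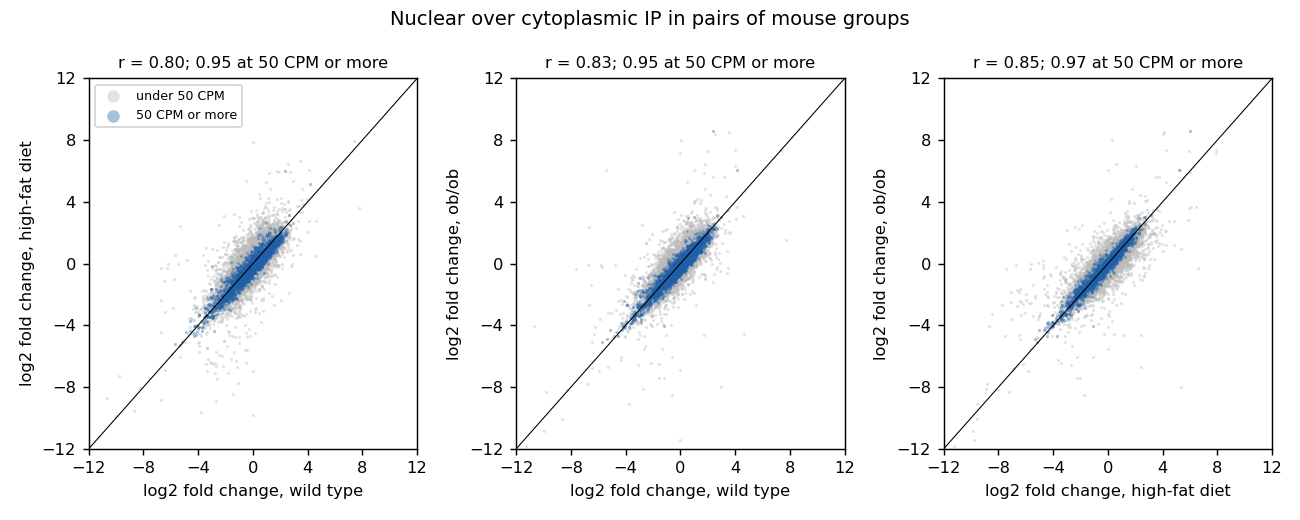
Log2 fold change of nuclear over cytoplasmic IP in 1 mouse group against another for 12502 clusters, with clusters of at least 50 CPM in blue and the line of equal values. The blue points hold close to the line in all 3 pairs (r of 0.946, 0.947 and 0.971), and clusters under 50 CPM spread more widely.

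Whether the compartment difference itself changed with obesity or diet was tested as an interaction. In edgeR's quasi-likelihood F test over the 3 mouse groups, 0 of 12502 clusters (0%) passed an adjusted p of 0.05, with 833 at an unadjusted p under 0.05 and a smallest adjusted p of 0.688. DESeq2's likelihood ratio test called 10, and edgeR with the replicate number as a block called 2. Leaving out wild-type cytoplasmic replicate 2 gave 1 in edgeR. No cluster is therefore named for such a difference. Pairs of groups gave 0 calls each as well, with 817 clusters at an unadjusted p under 0.05 for ob/ob against wild type, 1190 for high-fat diet against wild type and 353 for ob/ob against high-fat diet. The named cluster uc007upr.1 had log2 fold changes of 2.36 in wild type, 5.97 in high-fat diet and 8.57 in ob/ob, and an adjusted interaction p of 0.730 in edgeR. With 2 libraries per group and compartment, a p above the threshold does not show that the groups were alike.

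Single transcripts were then tested. Of 18723 transcripts, 7171 (38.3%) passed in edgeR, 3321 higher in nuclear IP and 3850 higher in cytoplasmic IP. Among the 7958 that were the only tested transcript of their cluster 48.9% were called, and among the 10765 that shared a cluster 30.5%. In 238 of the 4465 clusters with 2 or more tested transcripts (5.33%), 1 isoform was called higher in the nuclear IP and another higher in the cytoplasmic IP. Of these 238 clusters, 157 were called as a cluster and 81 were not, beside the 65.5% called over all clusters tested. RSEM divides reads between isoforms of shared sequence, and the files give no estimate of the error of that division. Between mouse groups, r of the fold changes was 0.718 to 0.763 for the 14673 transcripts with counts in each of the 6 groups of libraries, and 0.200 to 0.218 for the 4050 that were at 0 counts in at least 1.

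All 3 mouse groups called 2346 transcripts in the same direction, and 11 were called in opposite directions. In contrast to clusters, the interaction test called 17 transcripts (0.0908%), with 892 at an unadjusted p under 0.05 in edgeR. All 17 were at 0 counts in at least 1 of the 6 groups of libraries, against 21.6% of all transcripts tested. Of the 17, 16 shared their cluster with other tested transcripts, beside 10765 of all 18723 tested. With the replicate number as a block the count of interaction calls was 0. Of the 12 runs that left out 1 library, 4 stayed within 1.5 times of 17, and the count of the others follows. It was 7 without wild-type nuclear replicate 1. Without wild-type cytoplasmic replicate 2 it was 47. In high-fat diet it was 42 without cytoplasmic replicate 1, 28 without cytoplasmic replicate 2 and 52 without nuclear replicate 1. In ob/ob it was 31 without cytoplasmic replicate 1, 33 without nuclear replicate 1 and 29 without nuclear replicate 2.

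The named transcripts, chosen as the clusters were, were at 0 counts in several libraries of 1 compartment, so fitted fold changes depend on a prior count and ratios of summed counts are given, with exact 95% intervals that cover counting error only. Transcript uc007gbj.1 (879 nt) had 479 and 932 CPM in nuclear IP of wild type, 1402 and 1676 with high-fat diet and 1335 and 2323 in ob/ob. In cytoplasmic IP it was at 0 in 4 of 6 libraries, at 0.610 CPM in ob/ob replicate 1 and at 2.17 in high-fat replicate 2. Summed counts were 59748 against 24, a ratio per library size of 3433 (2307 to 5358), or 8685 without high-fat cytoplasmic replicate 2 (edgeR adjusted p = 9.1e-05). Transcript uc008ois.1 (342 nt) had 81.3 and 106 CPM in nuclear IP of wild type, 144 and 102 with high-fat diet and 113 and 127 in ob/ob. It was at 0 in 5 of 6 cytoplasmic libraries and at 1.49 CPM in high-fat replicate 2, which held all 11 of its cytoplasmic counts against 5205 nuclear ones. The ratio was 653 (364 to 1308; edgeR adjusted p = 2.6e-04), and without that library the nuclear side was at least 2018-fold higher, taking 3 counts over the cytoplasmic libraries as the limit that a count of 0 allows. Nuclear IgG held 373 CPM of uc007gbj.1 and 101 of uc008ois.1, and cytoplasmic IgG held none of either.

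Transcript uc009stl.1 (3949 nt) was the reverse. It had 401 and 411 CPM in cytoplasmic IP of wild type, 380 and 396 with high-fat diet and 487 and 406 in ob/ob. In nuclear IP it had 31.2 and 34.5 CPM in wild type, 0 in both high-fat libraries, and 44.0 and 0 in ob/ob. Of the nuclear libraries, 3 were at 0 and 3 between 31.2 and 44.0, with nothing between. Summed counts were 986 in nuclear and 24664 in cytoplasmic IP, an 18.1-fold difference (17.02 to 19.4; edgeR adjusted p = 0.0044). Transcript uc012cha.2 (1045 nt) had 84.4 and 60.3 CPM in cytoplasmic IP of wild type, 127 and 89.0 with high-fat diet and 126 and 171 in ob/ob. Its nuclear values were 1.47 and 0 CPM in wild type, 2.66 and 0 with high-fat diet and 2.83 and 10.2 in ob/ob. The cytoplasmic IP was 33.7-fold higher (28.6 to 40.0; edgeR adjusted p = 7.9e-04), or 75.2-fold without ob/ob nuclear replicate 2. IgG held 145 CPM of uc009stl.1 in the cytoplasm and 38.2 in the nucleus, and 38.4 and 17.4 CPM of uc012cha.2.

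Isoform usage, the division of a cluster among its transcripts, differed between compartments in 1074 of 4465 clusters (24.1%) by edgeR's diffSpliceDGE F test at an adjusted p of 0.05. In 668 of the called clusters (62.2%) a tested isoform was at 0 counts in at least 1 of the 6 groups of libraries. Among clusters not called that share was 65.4%. An isoform's share was its TPM over the sum of its cluster. The isoform that gained most in nuclear IP gained a median of 20.6 percentage points in called clusters and 9.19 points in all tested ones. The gain was 10 points or more in 772 called clusters, 25 or more in 461 and 50 or more in 152. As whole clusters, 379 of the 1074 were called higher in nuclear IP, 432 were called higher in cytoplasmic IP and 263 were not called, beside the 65.5% called over all clusters tested. The limma diffSplice test called 1058 clusters, of which 808 were among the 1074. Leaving out 1 library lowered the count to 658 (ob/ob cytoplasmic replicate 2), 664 (wild-type cytoplasmic replicate 1), 686 (wild-type nuclear replicate 2), 693 (high-fat cytoplasmic replicate 1) and 709 (ob/ob cytoplasmic replicate 1), and the other 7 gave 735 to 983. In these runs the filter on low counts was applied anew and left 5044 to 5165 clusters to test, more than the 4465 above. A filter at a mean of 50 counts left 1025 clusters to test and 468 calls, a share of 45.7% against 24.1%.

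In 944 of the 1074 clusters (87.9%) the gaining isoform gained in each of the 3 mouse groups, against 46.1% of all tested clusters. Both the clusters and their gaining isoform were picked on the average over the same 3 groups, so this share is partly built in. The share that it gained had a median of 16.1 points in wild type, 19.6 in high-fat diet and 20.1 in ob/ob, and its r across the 1074 clusters was 0.474 to 0.512 between pairs of groups. Within single mouse groups, 169, 262 and 256 clusters were called in wild type, high-fat diet and ob/ob, and 65 in all 3. DiffSpliceDGE on the interaction tested whether the difference in usage between compartments itself differed. Of 4465 clusters it called 12 between ob/ob and wild type, 16 between high-fat diet and wild type and 23 between ob/ob and high-fat diet. These counts were not recomputed with the replicate block or other alternatives.

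A switch was called where usage differed, the leading isoform differed between compartments and the nuclear leader had a higher share in every nuclear than in every cytoplasmic library. There were 150 (3.36% of 4465), and in 313 of the 1074 clusters the leading isoform differed. The nuclear leader of the 150 gained a median of 51.2 points, 46.6 in wild type, 53.4 in high-fat diet and 53.3 in ob/ob. It gained 50 points or more in 79 switches and under 25 in 3. As clusters, 110 of the 150 were called and 40 were not, beside the 65.5% called over all clusters tested.

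The 2 largest switches among the 105 in clusters of at least 20 CPM are described. Cluster uc007nzd.2 has 2 isoforms of nearly equal length, uc007nzc.2 of 3291 nt and uc007nzd.2 of 3300 nt. The share of uc007nzc.2 was 0% in all 6 cytoplasmic libraries. In nuclear IP it was 66.0% and 100% in wild type, and 100% in both libraries of high-fat diet and of ob/ob. As RSEM divided the reads, the exchange was complete apart from wild-type nuclear replicate 1, with an adjusted usage p of 1.3e-04 in edgeR. The error of that division is not given. With the replicate number as a block the adjusted usage p in edgeR was 0.044. The cluster as a whole differed little: its cytoplasmic libraries held 33.6 to 61.0 CPM and its nuclear ones 36.6 to 84.2, ranges that overlap, with a log2 fold change of 0.24 and an edgeR adjusted p of 0.043. Both IgG libraries assigned nearly all of the cluster to uc007nzc.2, the cytoplasmic one from 15 counts, so cytoplasmic IgG went against cytoplasmic IP here.

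Cluster uc007gbj.1 was abundant, with 272 to 875 CPM in the cytoplasmic libraries against 754 to 2596 in the nuclear ones (log2 fold change 1.56, edgeR adjusted p = 3.9e-06). Its isoform uc007gbj.1 (879 nt) took 0% to 0.368% of the cluster in the cytoplasm. In nuclear IP it took 63.8% and 88.5% in wild type, 87.5% and 90.1% with high-fat diet and 78.8% and 89.3% in ob/ob. Nearly all of the rest was uc007gbk.1 (937 nt), which took 99.1% to 100% of the cluster in cytoplasmic libraries and 9.87% to 36.2% in nuclear ones. The ranges lay far apart, and the lowest nuclear share was again that of wild-type replicate 1. The adjusted usage p was 2.8e-07 in the diffSpliceDGE fit of edgeR over all clusters. In IgG the share of uc007gbj.1 was 44.0% in the nucleus and 0% in the cytoplasm.

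**Figure D5:**
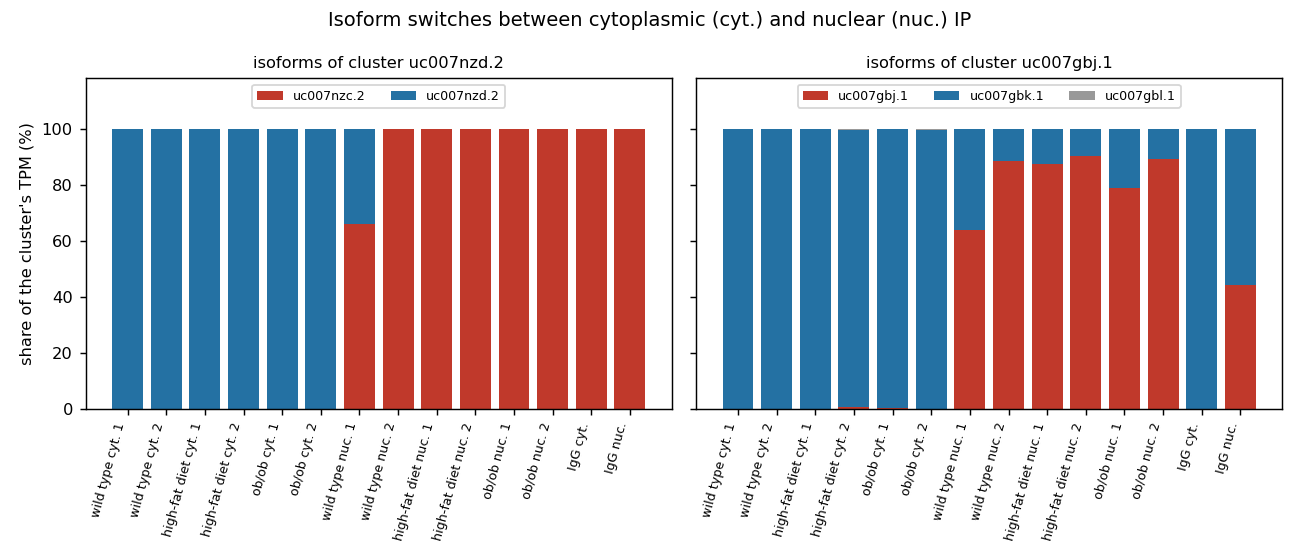
Share of each isoform in its cluster's TPM, in percent, in the 12 hnRNPK IP libraries and the 2 IgG libraries, for the 2 largest switches. The isoform drawn in red is at 0% to 0.368% in the 6 cytoplasmic IP libraries and at 63.8% to 100% in the 6 nuclear ones.

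Within clusters, length went against the gradient between clusters. The isoform that gained in nuclear IP was shorter than the one that lost most in 851 of the 1074 called clusters and longer in 222 (20.7%). It was longer in 34.5% of the clusters not called, and in 25 of the 150 switches. Within mouse groups it was longer in 12.4% of the clusters called in wild type, 21.8% in high-fat diet and 21.1% in ob/ob. The share depended on how much the isoforms differed: it was 13.1% for differences under 50 nt, 12.2% for 50 to under 200 nt, 19.8% for 200 to under 1000 nt and 37.8% for 1000 nt or more, the last close to the 38.4% of all tested clusters with such a difference. In the 406 called clusters whose tested isoforms all had counts in each group of libraries it was 27.8%.

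Per library, the mean share of the longer isoform over 1359 clusters with 2 tested isoforms and at least 20 CPM was 26.7% ± 2.56 (SD, n = 6) in cytoplasmic IP and 20.0% ± 1.34 (SD, n = 6) in nuclear IP, with ranges of 22.1% to 29.7% and 18.4% to 22.0%. The exact two-sided permutation p was 0.00216, the smallest that 6 against 6 libraries allow. The IgG libraries had 27.5% in the cytoplasm and 19.3% in the nucleus, inside the ranges of the IP libraries of the same compartment. Length minus effective length also differed between the compartments, at 63.5 ± 2.58 nt and 53.5 ± 4.07 nt (SD, n = 6), and its part in the isoform shares was not tested.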

How the data were processed

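Liver RNA from 12 hnRNPK IP libraries was compared. Deposited tables give, per the file headers, 1 row per transcript with an expected count (an estimated read count) and TPM, made by the authors with RSEM 1.2.8; TopHat2 2.0.10, Bowtie2 2.1.0, SAMtools, bcl2fastq and build mm10 are also listed in the submitters' processing notes, without roles. Deposited transcript and effective lengths are in nucleotides, per the file headers. No source used here states strandedness, so overlapping, antisense and near-identical transcripts are uncertain.

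Rounded sums of expected counts over each cluster were fitted with edgeR 4.0.16 (R 4.3.3): TMM scaling, filterByExpr, 6 group means, quasi-likelihood tests, the mouse groups weighted equally, and Benjamini-Hochberg adjustment over all features tested at a threshold of 0.05. Standard errors were derived as the absolute log2 fold change over the root of F. CPM of IP libraries is TMM-scaled and that of IgG is not. The deposited TPM was used for isoform shares only. Alternatives used DESeq2 1.42.0 and limma 3.58.1, other scalings and filters, a replicate block and each library left out. The steps were tested on simulated counts. Library measures were compared by exact permutation over samples.

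Clusters and transcripts were named if past the threshold, without overlap between compartments and at a mean of at least 50 CPM, taking the 2 with the largest fold change in each direction (transcripts only from clusters with 2 or more tested); switches by the largest share change at 20 CPM. The comparison, rules and length classes were chosen with earlier results of these data known. Gene lists, cell type markers and hnRNPK's own transcript were planned and could not be used, since no table used here links the identifiers to symbols. No sequence is shown for the same reason.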

Additional observations from a re-analysis of the deposited data

Results flagged for a closer look

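In each group of 6 libraries, a library was singled out where its gap to the nearest other library, as a share of the whole range, was above Dixon's 95% value. This met 8 of 38 groups of values checked, and chance alone gives about 1 in 20. Values at or near 0 in most libraries meet it easily. Cluster uc007upr.1 had 32.7 CPM in wild-type cytoplasmic replicate 2, with 5.58 next. Transcript uc007gbj.1 had 2.17 CPM in high-fat cytoplasmic replicate 2, with 0.610 next, and transcript uc008ois.1 had 1.49 CPM there and 0 in the other 5 cytoplasmic libraries. In the same library the share of isoform uc007gbj.1 was 0.368%, with 0.106% next, and that of uc007gbk.1 was 99.1%, with 99.7% next. Transcript uc009stl.1 had 487 CPM in ob/ob cytoplasmic replicate 1, with 411 next, and transcript uc012cha.2 had 10.2 CPM in ob/ob nuclear replicate 2, with 2.83 next. Isoform uc007nzc.2 had a share of 66.0% in wild-type nuclear replicate 1 and 100% in the other 5 nuclear libraries.

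Differences between mouse groups passed a test of the difference itself for 17 transcripts over all 3 groups in edgeR, and for 0 with the replicate block. In pairs, 13 transcripts differed between ob/ob and wild type, 15 between high-fat diet and wild type and 19 between ob/ob and high-fat diet. For isoform usage the counts of clusters were 12, 16 and 23 of 4465 in the same order, with 581, 606 and 600 at an unadjusted p under 0.05. The usage counts were not recomputed with the replicate block. The pairs share libraries, and all 17 transcripts were at 0 counts in at least 1 group of libraries.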

How the results depend on the processing

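Of 184 values recomputed under alternatives that kept all libraries or left out both high-fat replicate 2 libraries, 173 counted as unchanged and none reversed. Unchanged means the same direction and side of the threshold for tested values, within 1.5 times for counts, and within 1 SD of the mouse groups or libraries for medians and shares. Shares of isoforms use the deposited TPM, so scaling and the replicate block could not change them. The tested values were those of the named clusters and transcripts, which were chosen for large fold changes. Scaling by library size gave a median of 0.12 over all clusters and of -0.50 for clusters under 500 nt, and transcripts in place of clusters gave -0.40 under 500 nt and 0.29 at 8000 nt or more. Interaction calls for clusters were 2 with the replicate block and 10 in DESeq2. Usage calls were 468 with the stricter filter and 616 without both high-fat replicate 2 libraries, which also lowered calls within high-fat diet to 2714 and calls shared by all 3 groups to 2259. The causes were not tested, except that the stricter filter tests fewer clusters for usage (1025, of which 45.7% were called). Without both high-fat replicate 2 libraries more were tested for usage, 5092 in place of 4465.

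Same-numbered libraries deviated together with an r of 0.502 in wild type and 0.397 in ob/ob, but -0.105 in high-fat diet. The labels do not say whether the numbers mark pairs, and they were not taken as pairs in the main fit. With the replicate block 8761 clusters, 6345 transcripts and 866 usage differences were called, and 0 interaction transcripts.

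Leaving out 1 library at a time gave 7651 to 8102 clusters called (3760 to 4064 nuclear, 3808 to 4071 cytoplasmic), 6056 to 6668 transcripts (2752 to 3144 nuclear, 3133 to 3804 cytoplasmic), 658 to 983 usage differences and 129 to 176 switches. Within mouse groups it gave 4311 to 5656 clusters in wild type, 3848 to 5653 in high-fat diet, 4162 to 5934 in ob/ob and 3017 to 3667 in all 3. Interaction calls were 0 to 1 for clusters and 7 to 52 for transcripts. A group left with 1 library was assumed to vary like the others. The filter on low counts was applied anew each time, which left 5044 to 5165 clusters to test for usage in place of 4465.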
